A study of Homo sapiens with 5 samples.

Results

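Semaphorins, plexins, neuropilins, ephrins and Eph receptors are the guidance ligands and receptors that cells use to read their neighbours, and 53 of the 25382 genes in the count table belong to these families by their symbols. They comprise 28 ligands (20 semaphorins and 8 ephrins) and 25 receptors (9 plexins, 2 neuropilins and 14 Eph receptors). The libraries came from MDA-MB231, an established human breast cancer line that lacks hormone receptors and has mesenchymal traits, cultured in serum-containing medium, per the labels. Shear stress had separated the cells into a weakly adherent population (n = 3) and a strongly adherent population (n = 2). Sample titles carry the dates 6, 12 and 15 March for the weakly and 6 and 15 March for the strongly adherent cells. The titles do not say which step of the work these dates mark. The study asked how cells of 1 line that differ in adhesion strength differ in gene expression. Both groups are the same line and both went through the shear, so what the cells differed in beforehand and how they responded to shear cannot be told apart. Separate cultures are not named in the labels, so p-values cover only the variation among these 5 samples, which may be technical.

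Semaphorins bind plexins, directly or, for the secreted class 3 semaphorins, through a neuropilin co-receptor. Plexins then act through their GTPase-activating domain and through guanine nucleotide exchange factors to loosen integrin adhesion and to reshape the actin cytoskeleton. Ephrins are held in the membrane, by a lipid anchor in class A and by a transmembrane stretch in class B, so Eph receptor tyrosine kinases are engaged where cells touch, and signals run into both cells. In carcinoma cells these families are known for contact repulsion, spreading and invasion.

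The libraries held 19630386 to 21707459 gene reads, the fewest in the weakly adherent one of 12 March. Markers of the line were present: the summed CPM (gene reads scaled to a common library size with edgeR's TMM factors) of 6 of them was 7232 to 7298 in strongly and 6649 to 6859 in weakly adherent libraries. VIM was at 2458 to 2746 CPM, CDH1 at 1.18 to 2.07 CPM, and ESR1 and PGR had 0 reads in all 5 libraries. Markers taken as low or absent in the line numbered 5, CDH1, ESR1 and PGR among them. Their summed CPM was 105 to 115 in strongly and 110 to 113 in weakly adherent libraries, so not all 5 were near 0. Among markers of immune and fibroblast cells, CD3E and DCN had 0 reads throughout, while other markers of both lists had reads. The summed CPM of the 4 immune markers was 1.45 to 1.98 in strongly and 0.998 to 1.33 in weakly adherent libraries, that of the 3 endothelial markers 0.727 to 0.753 and 1.14 to 1.59, and that of the 4 fibroblast markers 17.3 to 23.7 and 19.6 to 22.6. Their part in the results was not tested.

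In edgeR without the date, 1 of 40 tested members, the receptor EPHB6, differed between weakly and strongly adherent cells (2.50%, against 2.68% of all genes tested). With the date as a block 5 of 40 did (12.5%, against 11.5%). The receptors EPHB6, EPHB3 and PLXNB3 were higher and the semaphorins SEMA3A and SEMA7A lower in weakly adherent cells. RefSeq's table of promoters (GRCh38.p14) held 47 of the 53 members, without SEMA3A, SEMA6A, SEMA6B, NRP1, EFNB3 and EPHA10. The 250 bases before the annotated start of the 3 receptors that were higher are shown because these 3 were called in the same direction. EPHB6 lies at chr7:142862506-142862755, EPHB3 at chr3:184561535-184561784 and PLXNB3 at chrX:153763999-153764248, each on the plus strand, and capitals mark the motif matches described after them.
EPHB6: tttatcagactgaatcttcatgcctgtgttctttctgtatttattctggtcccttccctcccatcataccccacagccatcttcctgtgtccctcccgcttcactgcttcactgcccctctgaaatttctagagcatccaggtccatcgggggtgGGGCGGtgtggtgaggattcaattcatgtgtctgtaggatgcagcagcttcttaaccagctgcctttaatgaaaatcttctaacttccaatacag
EPHB3: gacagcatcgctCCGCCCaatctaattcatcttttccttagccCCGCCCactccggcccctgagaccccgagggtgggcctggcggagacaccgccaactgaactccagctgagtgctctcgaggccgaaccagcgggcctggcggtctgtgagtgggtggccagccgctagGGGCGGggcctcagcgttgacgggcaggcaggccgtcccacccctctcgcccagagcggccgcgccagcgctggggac
PLXNB3: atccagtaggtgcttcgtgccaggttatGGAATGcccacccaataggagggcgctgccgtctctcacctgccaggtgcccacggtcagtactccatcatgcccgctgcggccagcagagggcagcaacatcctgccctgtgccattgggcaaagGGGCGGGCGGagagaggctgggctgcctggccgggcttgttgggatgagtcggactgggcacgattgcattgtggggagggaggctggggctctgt

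The 3 windows differed in base composition. The EPHB6 window had 3 CpG dinucleotides and 48.0% G or C, that of EPHB3 had 21 and 70.0%, and that of PLXNB3 had 11 and 64.4%, against a median of 11 CpG over the 35116 promoter windows of the same length. Both strands were searched for GGGCGG (the GC box bound by SP1), GGAATG (TEAD), TGANTCA (AP-1) and CACGTG (E-box). GGGCGG had 1 match in EPHB6, 3 in EPHB3 and 2 in PLXNB3, the 2 in PLXNB3 overlapping each other, and 42.6% of all windows held it. GGAATG had 1 match, in PLXNB3, and 11.9% of all windows held it. TGANTCA (6.6% of all windows) and CACGTG (6.3%) had 0 matches in these 3 windows. These matches are descriptions of the letters, and which start site the cells used is not known from gene counts.

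Most members were expressed, and a few dominated each family. Levels between genes are given as CPM per kilobase of coding sequence, averaged over the 5 libraries, and their order is a description. Reads on untranslated regions count toward these levels, so genes with long ones stand higher than their coding length alone would place them. EPHA2, the Eph receptor that carcinoma cells often overproduce, led the Eph receptors at 166 CPM per kb (range over libraries 153 to 183) and made up 63.1% to 67.1% of the family. The ephrin-B receptors EPHB2 (47.5, 45.2 to 50.2) and EPHB4 (29.1, 26.8 to 30.8) followed, and the ranges of the 3 did not overlap. EPHA4 was at 6.63, EPHB6 at 3.53 and EPHB3 at 0.908 CPM per kb. EPHA1, EPHA3, EPHA6, EPHA7, EPHA8 and EPHB1 had at most 1 read in any library.

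EFNB2, the transmembrane ligand of EPHB4 and EPHB2, led the ephrins at 134 CPM per kb (123 to 143) and made up 66.7% to 69.3% of that family. EFNA5, a lipid-anchored ligand, was at 36.9, EFNA4 at 10.9 and EFNB1 at 8.82 CPM per kb. EFNA5 and EFNA4 changed places when levels were set per kilobase of the longest transcript, as did EPHB2 and EPHB4. EFNA1, a high-affinity ligand of EPHA2, was at 4.59 CPM per kb (3.55 to 5.54).

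The neuropilin NRP1, co-receptor of class 3 semaphorins and of VEGF, was at 129 CPM per kb (123 to 141), and NRP2 at 6.24 (5.27 to 7.23). PLXNA1, a partner of NRP1 for class 3 semaphorins, made up 46.3% to 52.2% of the plexins at 72.7 CPM per kb (62.6 to 79.8). PLXNB2, a receptor of class 4 semaphorins such as SEMA4C, was at 40.0 CPM per kb (38.3 to 42.6) and PLXNA3 at 11.4. PLXNB1, the main SEMA4D receptor, was at 0.837, PLXNC1, the plexin receptor of SEMA7A, at 0.502 and PLXNA4 at 0.290 CPM per kb.

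Among semaphorins SEMA3C, a secreted ligand that uses neuropilins with PLXND1 or PLXNA2, was at 58.7 CPM per kb (55.1 to 62.7). SEMA7A, a lipid-anchored semaphorin that also binds integrin beta-1, was at 48.3 CPM per kb (41.8 to 57.2), so that the ranges of the 2 overlapped. SEMA7A stood before SEMA3C when levels were set per kilobase of transcript. SEMA4B at 21.7, SEMA4D at 15.2, SEMA3B at 12.7 and SEMA4C at 12.2 CPM per kb came next. SEMA3A was at 5.35 and SEMA5A at 0.685 CPM per kb.

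**Figure D1:**
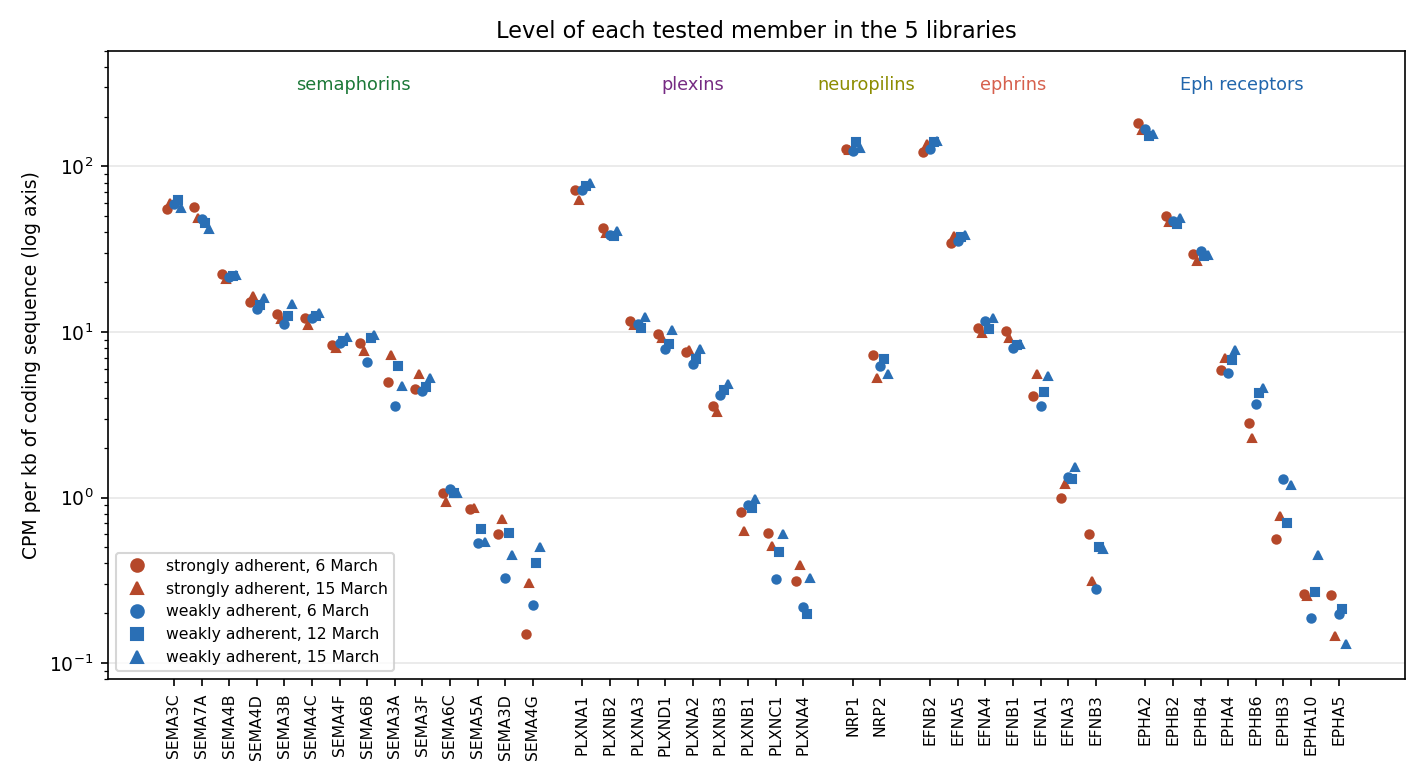
Level of each of the 40 tested members in the 5 libraries, as CPM per kb of coding sequence on a log axis, grouped by family and ordered by mean; colour gives the adhesion group and symbol the date. EPHA2, EFNB2 and NRP1 stood above 100 CPM per kb in all 5 libraries, while EPHB6 sat near 3.53 and EPHB3 near 0.908.

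Of the 53 members, 40 passed the filter on low counts and were tested, 19 of the 25 receptors and 21 of the 28 ligands. The 13 left out were the 6 Eph receptors with at most 1 read per library, SEMA4A and SEMA5B (0 to 2 reads), SEMA6D (0 to 8), SEMA3G (2 to 9), SEMA6A (2 to 11), EFNA2 (3 to 5) and SEMA3E (5 to 11).

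EPHB6 was higher in weakly adherent cells. EPHB6 is an Eph receptor whose kinase domain has lost its catalytic activity, and it signals by pairing with active Eph receptors. It had 8.66 CPM in the strongly adherent library of 6 March and 7.0 in that of 15 March. The weakly adherent libraries of 6, 12 and 15 March had 11.3, 13.1 and 14.0 CPM. All 3 weakly adherent libraries thus lay above both strongly adherent ones, at 12.8 ± 1.37 (SD, n = 3) against 7.83 ± 1.17 CPM (SD, n = 2). EPHB6 rose 1.64-fold, or by 0.71 on the log2 scale (SE 0.15, 95% interval 0.39 to 1.03, edgeR adjusted p = 0.022). Within dates the log2 difference was 0.38 on 6 March and 0.99 on 15 March, and with the date as a block the fold change was 0.69 (edgeR adjusted p = 6.8e-06). With 1 residual degree of freedom, p-values of the blocked fit, here and for other members, rest largely on variance borrowed across genes. That fit called 11.5% of all genes tested. The coding sequence of EPHB6 has 3066 bases, and with the trend of each library with coding length removed the fold change was 0.69 (edgeR adjusted p = 0.013). In the fit without the block, leaving out the strongly adherent library of 15 March ended the call (log2 fold change 0.57, edgeR adjusted p = 0.18), as did leaving out the weakly adherent one of 12 March (0.69, 0.062) or of 15 March (0.65, 0.078). Bulk RNA cannot tell apart more cells with EPHB6 from more EPHB6 RNA per cell, here and for every member.

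EPHB6 was 1 of 19 tested receptors called, against 2.68% of all 13297 genes tested (1.77% higher and 0.918% lower), and 0 receptors were lower, as in DESeq2 and limma-voom. At an unadjusted p under 0.05 edgeR held 3 receptors (EPHB6, EPHB3 and PLXNB3), all higher, against 14.2% of all genes tested in either direction. With the date block 3 receptors were called higher and 0 lower, against 6.20% and 5.28% of all genes in that fit. On 19 receptors either share rests on a few genes. The date block uses the 4 libraries of the shared dates. It gives no weight to the weakly adherent library of 12 March and leaves 1 residual degree of freedom. The median log2 fold change of the 19 receptors was -0.0042, and that of all genes tested was -0.0005.

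EPHB3, an active ephrin-B receptor, had 1.69 and 2.32 CPM in the strongly adherent libraries of 6 and 15 March. The weakly adherent libraries of 6, 12 and 15 March had 3.90, 2.09 and 3.59 CPM. The library of 12 March lay between the strongly adherent ones, so the groups overlapped. The log2 fold change was 0.67 (edgeR adjusted p = 0.29, SE 0.28). With the date block, where the library of 12 March has no weight, it was 0.90 (edgeR adjusted p = 0.0018, SE 0.23), with differences of 1.15 on 6 March and 0.61 on 15 March. EPHB3 rested on 36 to 82 reads per library.

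EPHB2 and EPHB4, active B-class receptors, were not called. EPHB2 had 159 and 146 CPM in strongly and 149, 143 and 155 CPM in weakly adherent libraries, in date order. EPHB4 had 88.1 and 79.2 against 91.1, 85.6 and 86.1 CPM. The groups overlapped for both, and the 95% interval of the log2 fold change was -0.20 to 0.12 for EPHB2 and -0.10 to 0.24 for EPHB4. In the A class EPHA2 had 537 and 488 against 490, 449 and 462 CPM. The EPHA2 log2 fold change was -0.13 (95% interval -0.30 to 0.03, edgeR adjusted p = 0.48). EPHA4 had 0.07 (-0.23 to 0.37), and EPHA5 and EPHA10, on 9 to 30 reads per library, had intervals of -1.05 to 0.73 and -0.61 to 1.07.

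**Figure D2:**
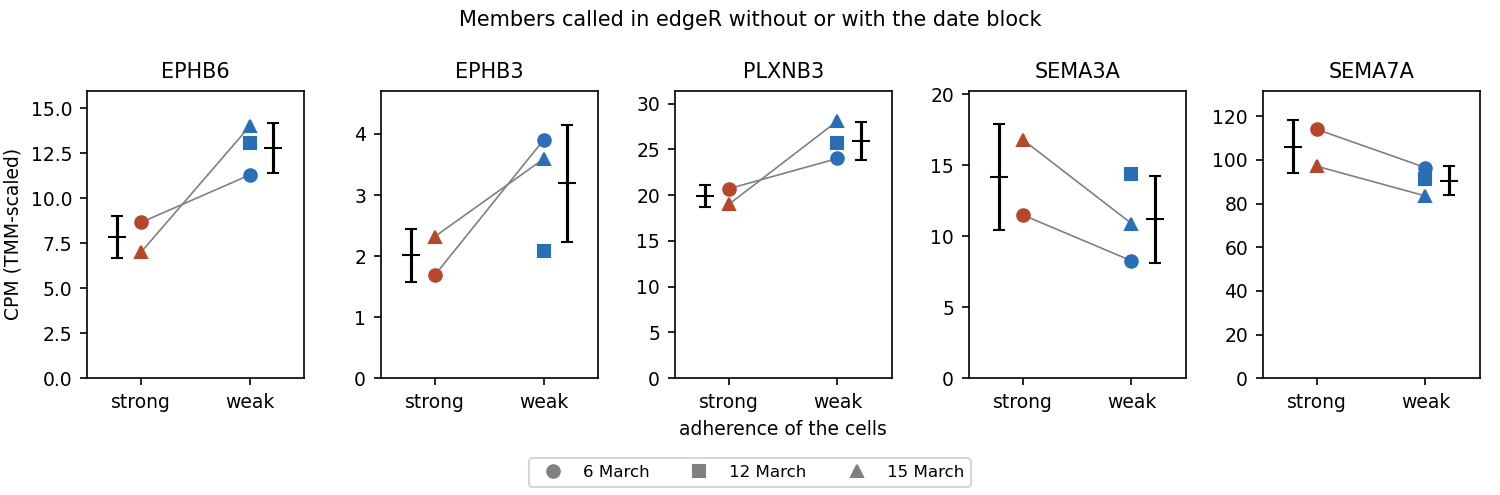
CPM of the 5 members called in edgeR without or with the date block, in strongly (red) and weakly (blue) adherent libraries, with symbols for dates, grey lines joining the libraries of a shared date and black bars for the mean ± SD (n = 2 and n = 3). Both lines rise for EPHB6, EPHB3 and PLXNB3 and both fall for SEMA3A and SEMA7A, and the 12 March library of EPHB3 (2.09 CPM) lies among the strongly adherent ones.

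Among plexins, PLXNB3, the receptor of SEMA5A, had 20.7 and 19.0 CPM in strongly and 24.0, 25.7 and 28.1 CPM in weakly adherent libraries. The weakly adherent libraries lay above both others. The log2 fold change was 0.39 (SE 0.10) at an edgeR adjusted p of 0.082, and with the date block it was 0.39 (edgeR adjusted p = 0.0012). With no filter on low counts, where 2.98% of all genes were called, PLXNB3 had an edgeR adjusted p of 0.039. In GENCODE release 29, 20.44% of the exonic bases of PLXNB3 are shared with SRPK3 on the same strand, and SRPK3 itself had 0 to 5 reads per library. PLXNB1 also had its weakly adherent libraries (5.75, 5.52 and 6.27 CPM) above the strongly adherent ones (5.27 and 4.0 CPM), with a log2 fold change of 0.34 (edgeR adjusted p = 0.42, SE 0.17). PLXNA1 had 411 and 356 against 411, 436 and 454 CPM, a log2 fold change of 0.18 (95% interval -0.0010 to 0.35, edgeR adjusted p = 0.35). PLXNA4, another A-class plexin, had the most negative value among plexins, -0.50 (95% interval -1.10 to 0.09), on 22 to 49 reads.

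Plexins have long coding sequences, from 4704 bases in PLXNC1 to 6405 in PLXNB1. With the trend of each library with coding length removed, edgeR called 113 genes higher and 136 lower, 2.04% of the 12226 genes that have a coding length. Over the same genes without that removal it called 234 higher and 123 lower. The median log2 fold change of the 9 plexins went from -0.07 to -0.23, against -0.0006 for all genes in it. The removed trend depends on coding length alone, so a shared shift of genes this long follows from the method and is no result about plexins. The PLXNB3 value went to 0.20 (edgeR adjusted p = 0.46) and stood at 0.20 (0.2) with the date block as well, which ends its call in the blocked fit. PLXNA1 went to 0.0003 (SE 0.09). In the other direction PLXNA2 (-0.29, edgeR adjusted p = 0.0072), PLXND1 (-0.26, 0.014) and PLXNB2 (-0.22, 0.023) were called lower with the trend removed and the date block. The same fit called 10.1% of all genes (4.51% higher and 5.58% lower), and without the block the 3 had adjusted p-values of 0.14, 0.21 and 0.19. With the block but no trend removed they were at -0.11, -0.07 and -0.05 (edgeR adjusted p = 0.49, 0.68 and 0.75). As counted, their differences were -0.24, -0.31 and -0.15 on 6 March but 0.01, 0.16 and 0.05 on 15 March. PLXND1 and PLXNA2 are receptors of class 3 semaphorins, and their CPM overlapped between the groups, at 53.0 to 56.0 against 45.3 to 59.0 for PLXND1 and 42.8 to 44.5 against 36.2 to 45.0 for PLXNA2.

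**Figure D3:**
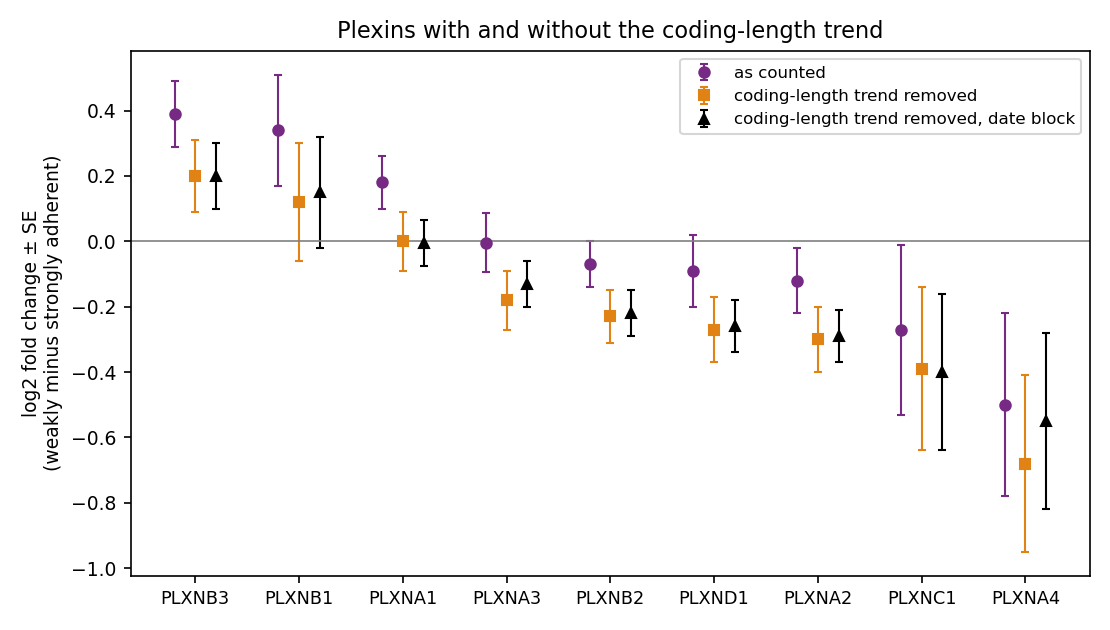
log2 fold change (weakly minus strongly adherent) ± SE of the 9 plexins as counted, with the coding-length trend of each library removed, and with the trend removed and the date as a block. Every plexin shifted downward when the trend was removed, PLXNB3 from 0.39 to 0.20 and PLXNB2 from -0.07 to -0.23. The removed trend depends on coding length alone, so genes of similar length shift alike by construction.

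Neither neuropilin was called. NRP1 had 353 and 346 CPM in strongly and 341, 391 and 357 CPM in weakly adherent libraries, a log2 fold change of 0.05 with a 95% interval of -0.11 to 0.22. NRP2 had 20.2 and 14.7 against 17.4, 19.3 and 15.5 CPM, with an interval of -0.32 to 0.31. The groups overlapped for both.

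None of the 21 tested ligands passed in edgeR without the block, and none in DESeq2 or limma-voom, which called 3.36% and 2.51% of all genes, while 2 had an unadjusted p under 0.05 in edgeR (SEMA5A and SEMA7A), against 14.2% of all genes tested. With the date block 0 ligands were higher and 2 lower, SEMA3A and SEMA7A, against 5.28% of all genes called lower. The median log2 fold change of the ligands was 0.04, with 12 positive and 9 negative.

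SEMA3A, the founding repulsive semaphorin, acts through NRP1 and A-class plexins. It had 11.5 and 16.8 CPM in the strongly adherent libraries of 6 and 15 March. The weakly adherent libraries of 6, 12 and 15 March had 8.27, 14.4 and 10.9 CPM. The groups overlapped, but on each shared date the weakly adherent library was lower, by a log2 difference of -0.48 on 6 March and -0.62 on 15 March. The log2 fold change was -0.35 (edgeR adjusted p = 0.64, SE 0.24) without and -0.56 (edgeR adjusted p = 2.0e-04, SE 0.12) with the date block. Without the block, leaving out the strongly adherent library of 15 March gave -0.04 and that of 6 March -0.59, and leaving out the weakly adherent library of 12 March gave -0.57 and that of 6 March -0.17. SEMA3A also differed between the dates, being higher on 15 than on 6 March in both groups (log2 difference 0.48, edgeR adjusted p = 0.003, SE 0.12).

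SEMA7A had 114 and 97.1 CPM in strongly and 96.5, 91.4 and 83.5 CPM in weakly adherent libraries, 106 ± 12.1 (SD, n = 2) against 90.5 ± 6.57 CPM (SD, n = 3). The groups did not overlap, with 97.1 and 96.5 CPM as the nearest values. The log2 fold change was -0.22 (edgeR adjusted p = 0.26, SE 0.09), and with the date block it was -0.23 (edgeR adjusted p = 0.01, SE 0.07). Without the block it was -0.10 when the strongly adherent library of 6 March was left out and -0.33 when that of 15 March was. On 6 March the difference was -0.24 and on 15 March -0.22. SEMA7A was lower on 15 than on 6 March in both groups (log2 difference -0.22, edgeR adjusted p = 0.021).

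SEMA5A, the ligand of PLXNB3, had 2.73 and 2.77 CPM in strongly and 1.71, 2.09 and 1.73 CPM in weakly adherent libraries. All 3 weakly adherent libraries lay below both others, on 36 to 61 reads each. The log2 fold change was -0.58 (edgeR adjusted p = 0.22, SE 0.22), or -0.68 with the date block (edgeR adjusted p = 0.061), so SEMA5A was not called in either. With the coding-length trend removed as well as the date block it was -0.70 (edgeR adjusted p = 0.047). SEMA3D, a secreted class 3 semaphorin, had -0.55 (SE 0.30) with differences of -0.81 and -0.67 on 6 and 15 March. SEMA4G had the largest positive value among semaphorins, 0.72 (95% interval -0.21 to 1.66), on 8 to 28 reads, and 27.43% of its annotated exonic bases are covered by genes on the other strand. Leaving out a strongly adherent library moved it to 0.30 (that of 6 March) or 1.34 (that of 15 March), and leaving out the weakly adherent one of 15 March to 0.45.

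SEMA3C, SEMA4B and EFNB2, also abundant ligands, were not called without or with the date block. SEMA3C had 124 and 136 against 133, 141 and 127 CPM (log2 fold change 0.04, 95% interval -0.13 to 0.21). SEMA4B had 56.1 and 52.4 against 53.7, 55.1 and 55.5 CPM (0.01, -0.16 to 0.19). EFNB2 had 123 and 137 against 127, 141 and 143 CPM (0.07, -0.10 to 0.25). The ranges of all 3 overlapped between the groups. Among the other ephrins EFNB1 had its weakly adherent libraries (8.31, 8.68 and 8.73 CPM) below the strongly adherent ones (10.5 and 9.55 CPM), with a log2 fold change of -0.22 (edgeR adjusted p = 0.49, SE 0.13). EFNA5 and EFNA4 were at 0.04 (SE 0.10) and 0.15 (SE 0.15), and EFNA3, at 15 to 24 reads, was at 0.33 (SE 0.31). Counts of EFNA3, EFNA4 and EFNB2 are less certain, since 44.68%, 14.96% and 26.16% of their exonic bases are shared with another gene. The other gene is on the same strand for EFNA3 and EFNA4 and on the opposite one for EFNB2.

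**Figure D4:**
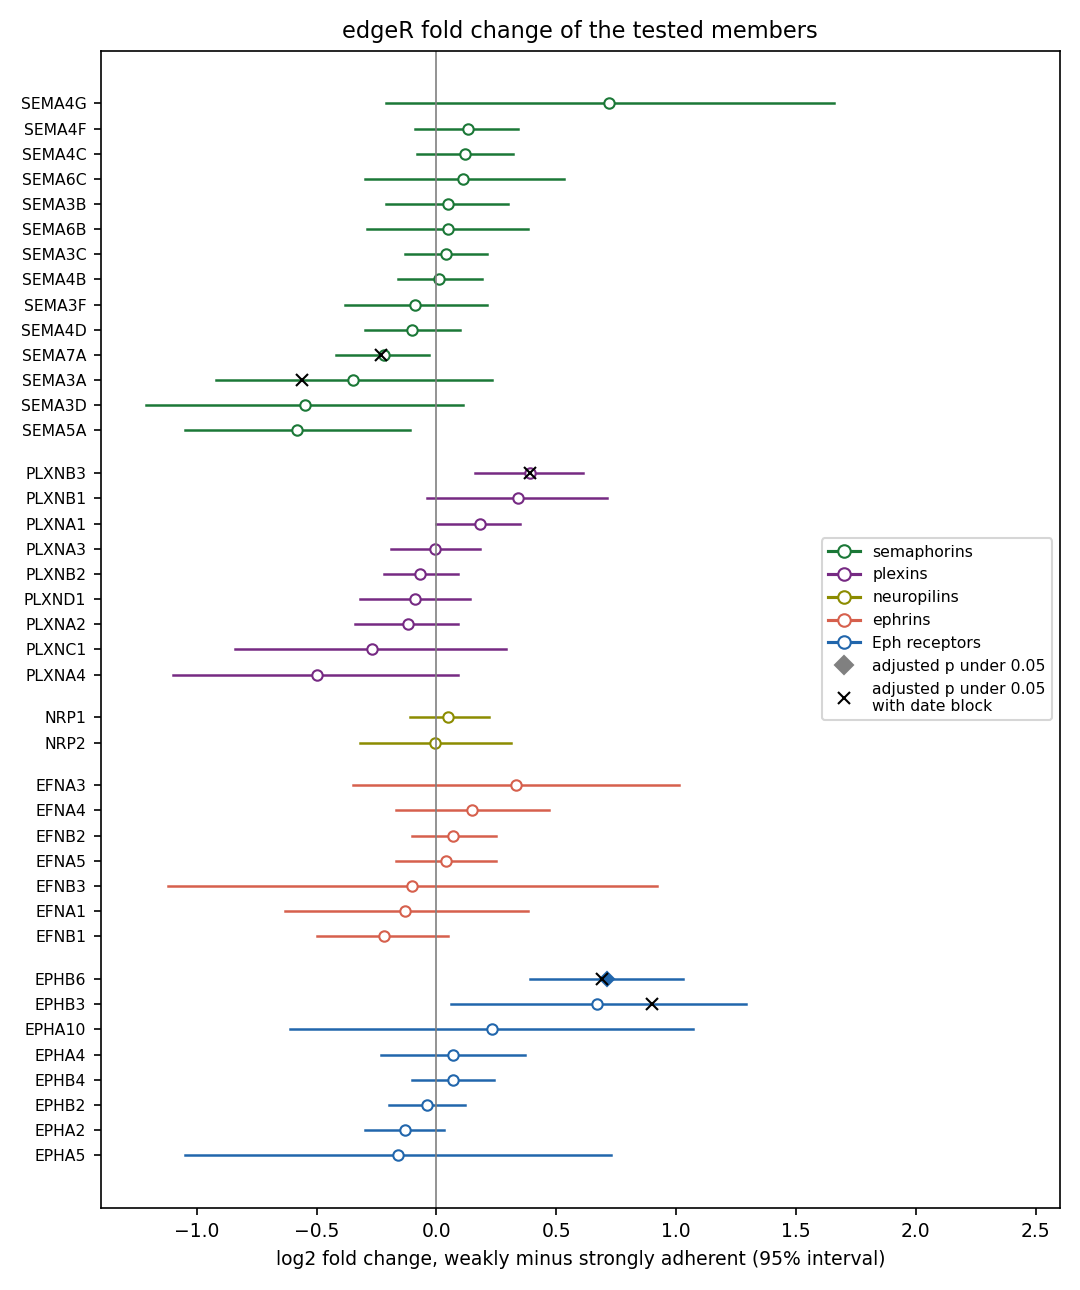
edgeR log2 fold change (weakly minus strongly adherent) with its 95% interval for the 40 tested members by family; the filled diamond marks an adjusted p under 0.05 and crosses mark the value with the date block where that fit gave an adjusted p under 0.05. EPHB6 (0.71) carries the diamond, and crosses stand at EPHB6, EPHB3, PLXNB3, SEMA3A and SEMA7A.

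The libraries of the shared dates gave each member a difference on 6 and on 15 March. The log2 difference had the same sign on 6 and 15 March in 23 of 40 members (57.5%), 12 higher and 11 lower in weakly adherent cells, against 62.8% of all genes tested. By role, the sign was the same in 8 of 19 receptors and 15 of 21 ligands. The median receptor difference was -0.10 on 6 March and 0.15 on 15 March, and the median ligand difference -0.06 and 0.06. Members with opposite signs included PLXNC1 (-0.87 on 6 March, 0.22 on 15 March), PLXND1 (-0.31 and 0.16) and SEMA6B (-0.38 and 0.31). In 9 of 40 members (22.5%) the ranges of the groups did not meet, with the weakly adherent range above in 6 and below in 3. Over all genes tested this held for 30.0%, 15.5% above and 14.5% below.

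**Figure D5:**
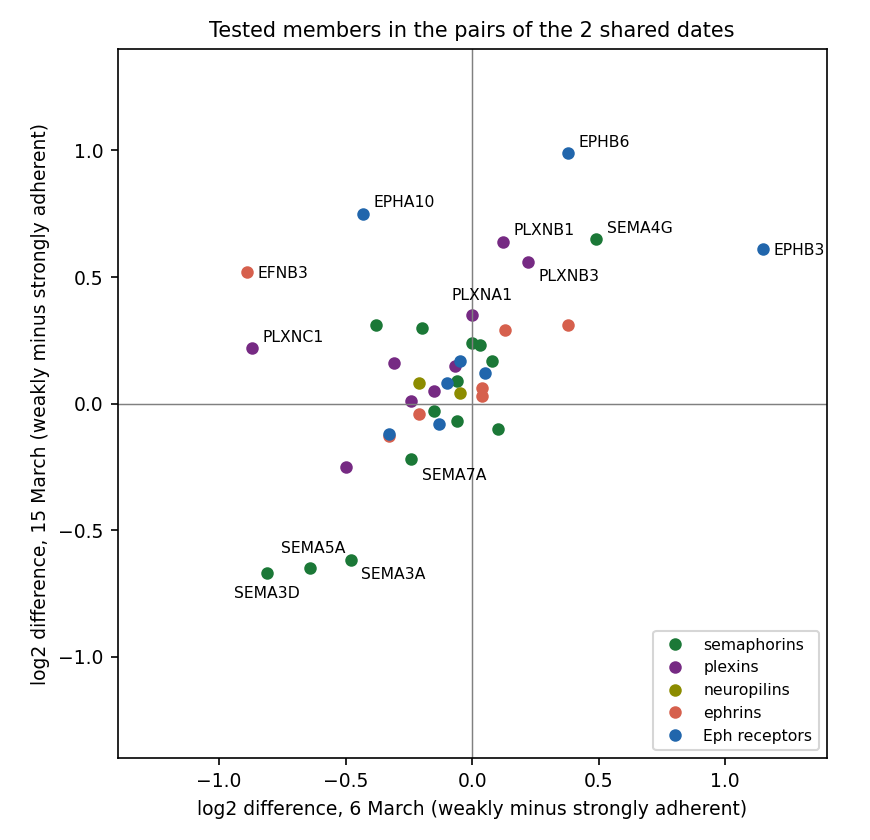
log2 difference (weakly minus strongly adherent) of each of the 40 tested members on 6 March (horizontal axis) and 15 March (vertical axis), coloured by family. EPHB3 and EPHB6 lie in the upper right, SEMA3D, SEMA5A and SEMA3A in the lower left, and 23 of 40 members lie in those 2 quadrants.

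The dates themselves separated some members. Between 15 and 6 March, with adhesion as a covariate, edgeR called SEMA3A and EPHA4 higher and SEMA7A and NRP2 lower on 15 March, 4 of 40 members (10.0%) against 9.29% of all genes tested (6.74% higher and 2.55% lower). EPHA4, a receptor that binds ephrins of both classes, had a log2 difference of 0.35 (edgeR adjusted p = 0.013, SE 0.10), and NRP2 one of -0.31 (edgeR adjusted p = 0.041, SE 0.11). This fit has 1 residual degree of freedom.

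Summed over members, receptors and ligands differed between the groups by less than the spread of the libraries. Receptors took 0.195% ± 0.00768 (SD, n = 2) of gene reads in strongly and 0.196% ± 0.00744 (SD, n = 3) in weakly adherent cells, and ligands 0.0641% ± 0.00191 and 0.0632% ± 0.00296. By family, Eph receptors were at 0.0804% and 0.0756% in strongly and 0.0751%, 0.0712% and 0.0756% in weakly adherent libraries, sums in which EPHA2 has most reads. Plexins were at 0.0831% and 0.0773% against 0.0787%, 0.0826% and 0.0905%.

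Of 41 tested of 47 listed intracellular and surface partners of semaphorins and plexins, 1 was higher and 1 lower without the date block (2.44% each, against 1.77% and 0.918% of all genes tested). With the block 2 were higher (4.88%, against 6.20%) and 7 lower (17.1%, against 5.28%). The list's median log2 fold change was -0.04. This list and that of Eph and ephrin partners were chosen with earlier results of these data known, so their shares are descriptions only. ARHGEF12, a guanine nucleotide exchange factor that binds B-class plexins, had 297 and 322 CPM in strongly and 409, 387 and 408 CPM in weakly adherent libraries. ARHGEF12 rose by a log2 fold change of 0.38 (edgeR adjusted p = 0.017, SE 0.07). RND3, an atypical small GTPase, fell from 91.0 and 93.8 to 72.2, 71.9 and 69.5 CPM (log2 fold change -0.38, edgeR adjusted p = 0.016, SE 0.07). The groups of neither gene overlapped. With the coding-length trend removed ARHGEF12, with 4632 coding bases, was at 0.27 (edgeR adjusted p = 0.12). The call on ARHGEF12 was lost when the strongly adherent library of 6 March (adjusted p = 0.25) or the weakly adherent one of 12 March (0.055) was left out. The call on RND3 was lost without the strongly adherent libraries of 15 March (0.12) and 6 March (0.088) and the weakly adherent ones of 12 March (0.063) and 15 March (0.061).

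For Eph and ephrin partners 55 symbols were listed, AFDN and MLLT4 being names of the same gene, and 50 were tested. Of those tested, 3 were higher (6.0%, against 1.77% of all genes tested) and 1 lower (2.00%, against 0.918%) without the date block. With it 6 were higher (12%, against 6.20%) and 3 lower (6.0%, against 5.28%), and the list's median log2 fold change was 0.03. MLLT4 (afadin, the PDZ scaffold that binds Eph receptor tails) had 129 and 126 against 182, 171 and 166 CPM, and rose by a log2 fold change of 0.44 (edgeR adjusted p = 0.0061, SE 0.07). CBL, the ubiquitin ligase that turns over activated Eph receptors, rose from 95.2 and 102 to 141, 122 and 130 CPM, by 0.41 on the log2 scale (edgeR adjusted p = 0.019, SE 0.08). ROCK2, a kinase that drives actomyosin contraction, rose from 93.4 and 103 to 130, 121 and 123 CPM (0.35, edgeR adjusted p = 0.031, SE 0.08). CLDN1, a tight junction claudin, had 4.38 and 4.86 against 1.66, 2.15 and 2.09 CPM, and fell by 1.23 on the log2 scale (edgeR adjusted p = 0.0053, SE 0.20) and stayed called whichever library was left out. With the coding-length trend removed MLLT4, with 5502 coding bases, was at 0.28 (edgeR adjusted p = 0.11) and ROCK2 at 0.27 (0.12), while CBL was at 0.41 (0.019). The call on MLLT4 was lost without the strongly adherent library of 6 March (0.054) or 15 March (0.055), and that on CBL without the strongly adherent library of 6 March (0.18) or the weakly adherent one of 15 March (0.051). That on ROCK2 was lost without each of the 5 libraries, the strongly adherent ones of 6 March (0.32) and 15 March (0.052) and the weakly adherent ones of 6 March (0.057), 12 March (0.085) and 15 March (0.07).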

How the data were processed

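RNA of 5 samples was sequenced as single-end reads of 50 bases from a stranded kit, per the labels' protocols. Deposited by the authors were raw counts per gene symbol and, separately, log2 values. Each deposited log2 value is the log2 of 1 plus the count over its library's size factor, as checked on the files, and served as an alternative only. Among the tools in the submitters' processing notes are STAR, HTSeq, DESeq2, cutadapt and FastQC, with build hg19. Versions, annotation and strand setting were not given in the sources used here. Whether reads of overlapping genes were told apart by strand is therefore unknown. The 5 HTSeq total rows were left out (no gene: 6.49% to 8.08% of reads, ambiguous: 1.10% to 1.16%, not unique: 16.0% to 16.8%).

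Weakly adherent libraries were compared with strongly adherent ones by edgeR 4.0.16 (R 4.3.3) on the raw counts of the whole table. The settings were TMM scaling, filterByExpr and a robust quasi-likelihood F test, with Benjamini-Hochberg adjustment over all 13297 genes tested and a call at adjusted p under 0.05. The common biological coefficient of variation was 7.91%. Intervals are 95% intervals of that fit, and differences within a date are of log2(CPM + 0.1). Alternatives were DESeq2 1.42.0 (its size factors and its Wald test), limma 3.58.1 (voom, and on the deposited log2 values), other filters, the date as a block, removal of each library's trend with coding length (an offset from a natural spline, 5 degrees of freedom), and leaving out each library. Lengths were matched by symbol to GENCODE release 29 (91.9% of tested genes). Only the edgeR fits without and with the date block were tried on simulated counts. Those counts held no date effect and no length trend.

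Titles carry the dates, so libraries of 1 date were treated as pairs. Deviations from the group means correlated at 0.3351 for 6 March and 0.2040 for 15 March, and since the group of 2 has mirrored deviations these are not independent. The weakly adherent library of 12 March, which has no partner of its date, correlated at 0.1564 with the strongly adherent one of 15 March. These values therefore do not settle how well pairing by date holds.

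The members, the lists of partners and the alternatives were chosen with earlier results of these data known. Members named by rule were those called without or with the block, the 3 highest of each family per kilobase, and the largest increase and decrease of each family. Partners named by rule were the called ones and the 2 of each list with the smallest p, which were among them. Other members were named after their values were seen. The value of 1 marker gene is not reported here.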

Additional observations from a re-analysis of the deposited data

How the results depend on the processing

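The EPHB6 call stood in 9 of 9 other analyses on all 5 libraries. Genes called higher numbered 235 in the reported fit, 113 with the coding-length trend removed, 825 with the date as a replicate block, 551 with both, and 82 to 238 leaving out 1 library at a time. Genes called lower numbered 122, then 702 with the block, 682 with block and trend removal, 203 with no filter on low counts, and 34 to 103 leaving out 1 library. Receptors called higher went from 1 to 3 with the block, 2 with block and trend removal, 2 with no filter and 0 to 1 leaving out 1 library. Receptors called lower went from 0 to 3 with block and trend removal, and ligands called lower from 0 to 2 with the block and 3 with both.

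Among the members named by rule, none whose sign turned was called without or with the block. With the block NRP1 was at -0.0030 and PLXNA3 at 0.04, and with block and trend removal NRP1 was at -0.01, PLXNA1 at -0.0062 (reported as 0.18) and SEMA3C at -0.0027. NRP2 was at 0.0075 with limma on the deposited log2 values and 0.0059 with limma-voom. Leaving out 1 library gave -0.03 to 0.11 for EFNA5, -0.0015 to 0.16 for EFNB2, -0.51 to 0.30 for EPHA5 (reported as -0.16), -0.09 to 0.02 for EPHB2, -0.0042 to 0.14 for EPHB4, -0.0036 to 0.10 for NRP1, -0.21 to 0.24 for NRP2, -0.06 to 0.04 for PLXNA3, -0.02 to 0.11 for SEMA3C and -0.03 to 0.06 for SEMA4B. Members not named by rule also turned sign, SEMA6B and EPHA4 among them. SEMA6B was at 0.05 and with the block at -0.02, and EPHA4 at 0.07 and, leaving out 1 library, at -0.04 to 0.20. The cause was not tested. Added to the reported fit, the replicate block changed the call of EPHB3, PLXNB3, SEMA3A and SEMA7A and of no other member. Added to the fit with the trend removed, it changed that of EPHB3, SEMA3A, SEMA5A, SEMA7A, PLXNA2, PLXNB2 and PLXND1. Ranking levels by transcript length and adjusting over the genes with a coding length were chosen after seeing the data. Depth limits members with few reads: the SE of the log2 fold change was 0.28 for EPHB3, on 36 to 82 reads, and 0.08 for EPHA2, on 8786 to 11412. Leaving out either strongly adherent library left 1, assumed to vary like the weakly adherent ones.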
